A study of Bos taurus with 10 samples.

Results

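The genes described here belong to cumulus expansion and to the hyaluronan matrix that surrounds the ovulating oocyte, in bovine oocytes before and after maturation in vitro. The members were 8 genes (TNFAIP6, PTX3, HAS2, PTGS2, VCAN, CD44, ADAMTS1 and TNFRSF21), and every probe set annotated to 1 of these symbols alone was taken, which gave 16 of the 24016 probe sets tested. In vitro matured (IVM) oocytes were compared with immature oocytes at the germinal vesicle (GV) stage on GeneChip Bovine arrays, 5 arrays a group. Both groups came from cumulus-oocyte complexes aspirated from 3 to 8 mm follicles of cows at slaughter, with neither breed nor age given in the sources used here. The IVM oocytes stayed in their complexes for 24 h at 39°C under 5% CO2, in TCM-199 that held 10 ng/ml of epidermal growth factor (EGF) and serum of fetal calves at 10%, and were then denuded. The immature oocytes were denuded at once, with no culture and no EGF. Denuding was by pipetting, and only oocytes with no cumulus cell in view under a stereomicroscope were kept, frozen in tubes of 10. Whether cumulus cells or their RNA remained was not tested. By the study's methods, each array held a pool of 100 oocytes from 1 day of collection. For each pool an input of 100 ng RNA was amplified in a pair of rounds primed at the poly(A) tail.

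Cumulus cells are the somatic cells that enclose the oocyte and touch it through projections that cross the zona pellucida. After the gonadotrophin surge, or under EGF-like ligands in culture, they secrete hyaluronan, a long sugar polymer, and the complex swells into a sticky mass. HAS2 makes the polymer, PTGS2 makes prostaglandins that take part in expansion, TNFAIP6 and PTX3 cross-link the strands, VCAN and ADAMTS1 are a hyaluronan-binding proteoglycan and the protease that cleaves it, and CD44 is the cell surface receptor of hyaluronan. TNFRSF21 is a death-domain receptor of the tumour necrosis factor (TNF) receptor family and no matrix protein.

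Values are on a log2 scale, 1 for each probe set and array, as summarised and normalised upstream. That summary gives a nearly constant value where the probes of a set share no signal across the arrays. A probe set whose 10 values spanned less than 0.01 is called flat here. Of the 16 member probe sets 13 varied and 3 were flat, against 39.4% of all probe sets that varied and 46.3% of those with 1 gene symbol. Differences are IVM minus immature, with the standard error (SE) and the Benjamini-Hochberg adjusted p of limma over all 24016 probe sets. The thresholds were 0.0001, the false discovery rate of the study's methods, and 0.05.

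The arrays differed in ways other than the group. Bacterial poly-A control RNAs, measured by 24 probe sets, averaged 8.17 ± 0.22 on IVM arrays and 7.12 ± 0.17 on immature arrays (SD, n = 5 each), a difference of 1.05 with an exact two-sided permutation p of 0.00794. The 18 hybridisation control probe sets averaged 10.75 to 11.22 on IVM arrays, against 10.75 to 10.85 on immature arrays 4 and 5 and no more than 9.73 on immature arrays 1 to 3. For this reason member differences are also given with immature arrays 4 and 5 alone as the comparison. Of the 10 oocyte markers on the array all varied, and their mean was 9.87 to 11.06 on IVM arrays and 12.29 to 12.78 on immature arrays.

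TNFAIP6, PTX3, HAS2, PTGS2, VCAN, ADAMTS1 and TNFRSF21 each had a probe set that rose in IVM oocytes, CD44 was flat, and no member fell, but those of HAS2 and PTGS2 did not stay higher at 0.05 when each array was centred on its poly-A controls. Centred in that way, 8 of the 16 member probe sets were higher at 0.05, the varying ones of the other 5 genes, where 2.66% of all probe sets were. At an adjusted p under 0.0001, 1 of the 16 member probe sets was higher in IVM oocytes, the first of TNFAIP6, where 0.974% of all probe sets were. At 0.05 it was 12 of 16, where 15.5% of all probe sets were higher, and these 12 covered the 7 genes that varied. All 5 IVM arrays lay above all 5 immature arrays in 10 of the 16, against 11.6% of all probe sets, and in 10 of the 13 that varied, against 27.0% of all that varied. The median difference was 2.06 over the 16 member probe sets and 0 over all probe sets, and 3.48 over the 13 against 0.18 over the 9460 that varied.

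**Figure D1:**
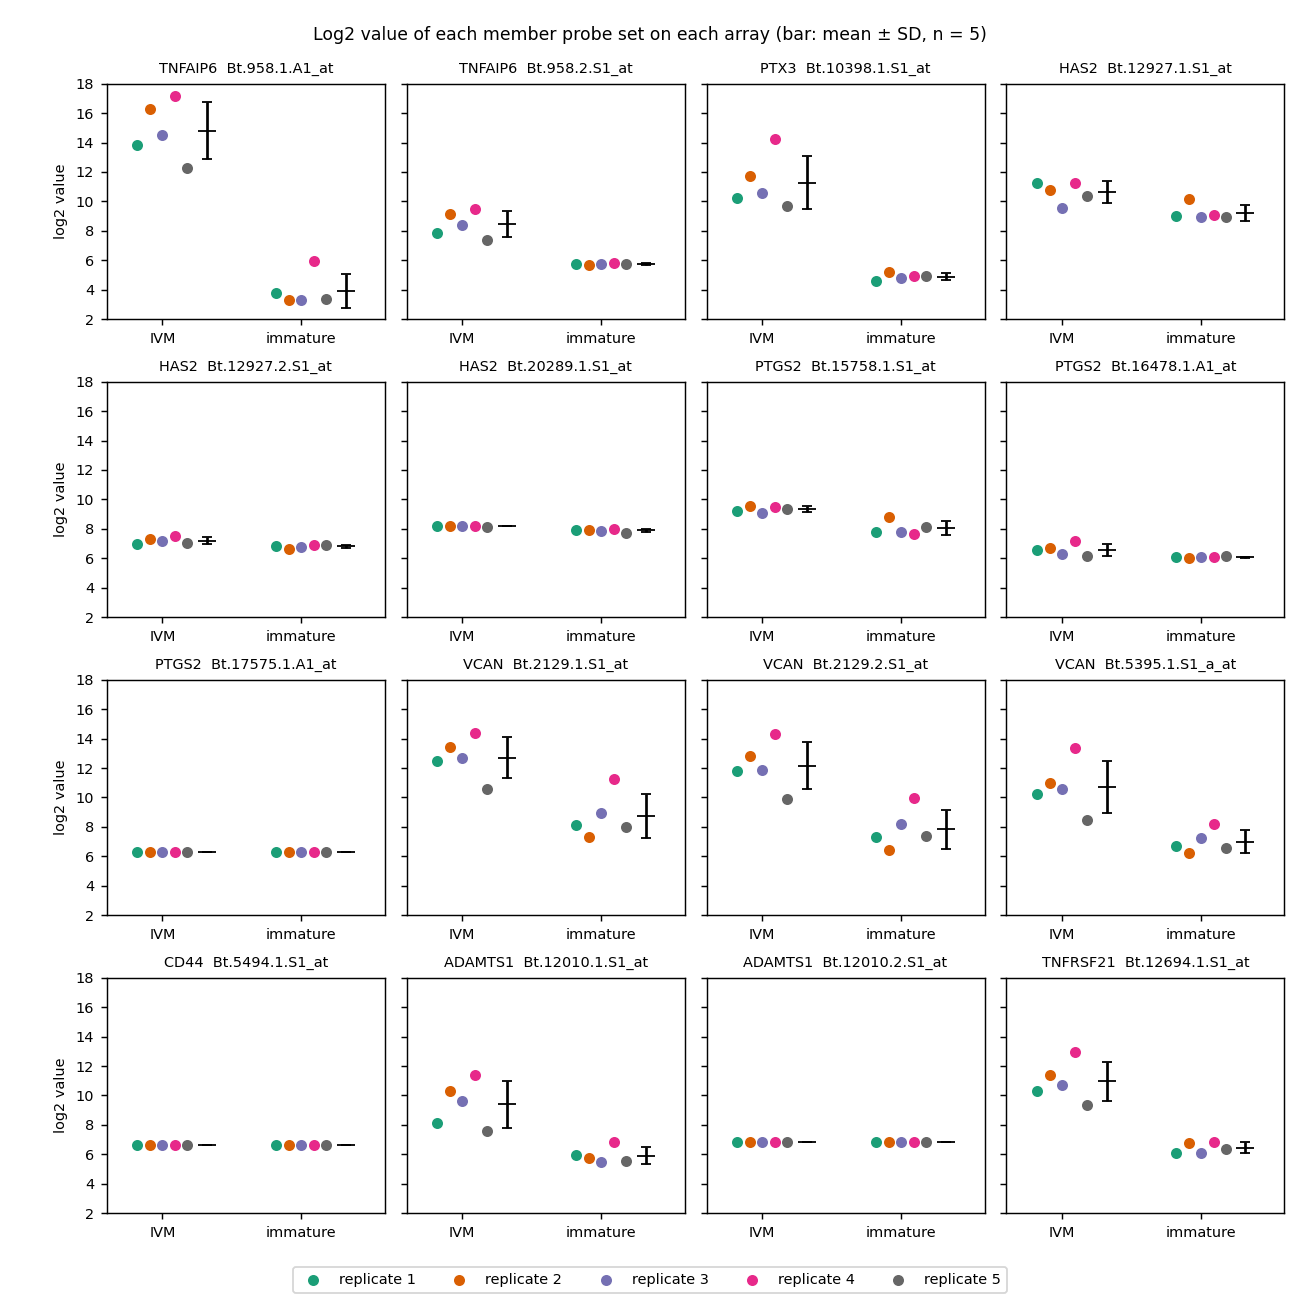
Log2 value (vertical axis) of each of the 16 member probe sets on the 5 IVM arrays (left) and the 5 immature arrays (right), coloured by replicate, with the mean ± SD of each group beside the points. The gap between the groups is widest in the first TNFAIP6 probe set, and the probe set of CD44 and 1 each of PTGS2 and ADAMTS1 are flat on all 10 arrays.

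TNFAIP6 encodes a secreted protein that moves heavy chains of the inter-alpha-trypsin inhibitor onto hyaluronan. Its probe set Bt.958.1.A1_at read 13.84, 16.25, 14.48, 17.13 and 12.27 on IVM arrays 1 to 5, against 3.77, 3.30, 3.27, 5.95 and 3.38 on immature arrays 1 to 5. The groups did not overlap: the lowest IVM array lay 6.32 above the highest immature one, which was array 4. The difference was 10.86 (SE 0.998, adjusted p = 7.63e-05 by limma), which ranked 1 of all 24016 probe sets by signed size. It stayed between 10.13 and 11.36 without IVM array 4, without immature array 2 or 4, and with immature arrays 4 and 5 alone, where the adjusted p was 0.0158. Of the 10 fits that left out 1 array, only the one without IVM array 5 kept the adjusted p of limma under 0.0001. Over all 10 it ran between 8.57e-05 and 4.6e-04. Quantile normalisation applied again gave a difference of 9.40, and centring on the poly-A controls or the oocyte markers gave 9.81 or 12.86. The size is on the scale of the upstream summary, where all immature values lay below the array medians (7.04 to 7.10). The other TNFAIP6 probe set gave 2.71.

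The other TNFAIP6 probe set, Bt.958.2.S1_at, read 7.85, 9.17, 8.39, 9.51 and 7.38 on IVM arrays, against 5.73, 5.68, 5.76, 5.83 and 5.73 on immature arrays. The immature arrays were nearly level, and all IVM arrays stood above them in the same order as in the first probe set. The difference of 2.71 (SE 0.40, adjusted p = 0.0011 by limma) passed 0.05 but not 0.0001.

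PTX3, a pentraxin that binds TNFAIP6 and the transferred heavy chains, read 10.20, 11.72, 10.57, 14.21 and 9.71 on IVM arrays, against 4.62, 5.20, 4.76, 4.95 and 4.96 on immature arrays (Bt.10398.1.S1_at). The groups were far apart, and IVM array 4 stood well above the other IVM arrays. The difference was 6.38 (SE 0.80, adjusted p = 4.8e-04 by limma), rank 14. Without IVM array 4 it was 5.65, with an adjusted p of 3.84e-05, so PTX3 then passed 0.0001. With immature arrays 4 and 5 alone it was 6.33, with an adjusted p of 0.0383.

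HAS2, the hyaluronan synthase of cumulus cells, had 3 probe sets, and all varied. The first, Bt.12927.1.S1_at, read 11.25, 10.80, 9.54, 11.24 and 10.36 on IVM arrays, against 9.00, 10.19, 8.91, 9.09 and 8.97 on immature arrays. The groups overlapped, since immature array 2 stood above IVM array 3. The difference was 1.40 (SE 0.40, adjusted p = 0.0285 by limma). It lost 0.05 in 7 of the 10 fits without 1 array (IVM array 1, 2 or 4 or immature array 1, 3, 4 or 5, highest adjusted p 0.0677). It also lost 0.05 with the replicate number, taken as the day of collection, as a block (0.0565). Centred on the poly-A controls it was 0.35 (adjusted p = 0.316).

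The second HAS2 probe set, Bt.12927.2.S1_at, read 6.95, 7.30, 7.17, 7.54 and 7.04 on IVM arrays, against 6.81, 6.66, 6.78, 6.89 and 6.94 on immature arrays, so all IVM arrays stood just above all immature ones. The third, Bt.20289.1.S1_at, read 8.21, 8.21, 8.19, 8.18 and 8.15 on IVM arrays, against 7.95, 7.93, 7.85, 8.01 and 7.74 on immature arrays, again with no overlap. Their differences were small, at 0.38 (SE 0.11, adjusted p = 0.0344 by limma) and 0.29 (SE 0.05, adjusted p = 0.002). Both turned negative, to -0.67 and -0.76, when each array was centred on its poly-A controls. There they passed 0.05 as lower (adjusted p of 1.25e-04 and 6.8e-05), as did 86.7% of all probe sets, since that centring lowered every difference by 1.05. The second also lost 0.05 in 6 of the 10 fits without 1 array (IVM array 2 or 3 or immature array 1, 2, 3 or 4, highest adjusted p 0.0794) and under the block (0.0909), while the third kept it in all 10 fits.

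PTGS2, the inducible cyclooxygenase, also had 3 probe sets, of which Bt.17575.1.A1_at was flat at 6.29. Bt.15758.1.S1_at read 9.24, 9.53, 9.09, 9.52 and 9.35 on IVM arrays, against 7.78, 8.84, 7.80, 7.66 and 8.09 on immature arrays. The IVM arrays were close to each other and above all immature arrays, of which array 2 was highest. The difference was 1.31 (SE 0.23, adjusted p = 0.0027 by limma), and without immature array 2 it was 1.51 (adjusted p = 1.27e-04). Centred on the poly-A controls it was 0.26 and missed 0.05 (adjusted p = 0.282). The last probe set, Bt.16478.1.A1_at, read 6.55, 6.69, 6.29, 7.15 and 6.17 on IVM arrays, against 6.06, 6.04, 6.08, 6.07 and 6.14 on immature arrays, which did not overlap either. It did not pass 0.05, with a difference of 0.49 (SE 0.17, adjusted p = 0.0652 by limma). With poly-A centring this turned to -0.56 (adjusted p = 0.0033, lower), where 86.7% of all probe sets were lower at 0.05. Uncentred and without IVM array 4, the adjusted p was 0.0425.

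VCAN, the large proteoglycan that binds hyaluronan, rose in all of its 3 probe sets. Bt.2129.1.S1_at read 12.49, 13.41, 12.67, 14.35 and 10.56 on IVM arrays, against 8.14, 7.34, 8.93, 11.26 and 8.02 on immature arrays. Bt.2129.2.S1_at read 11.83, 12.85, 11.89, 14.30 and 9.91 on IVM arrays, against 7.30, 6.44, 8.19, 9.95 and 7.36 on immature arrays. In both, IVM array 5 fell below immature array 4, in the second probe set only just, while every other IVM array stood above every immature one.

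The third VCAN probe set, Bt.5395.1.S1_a_at, read 10.24, 10.98, 10.54, 13.35 and 8.49 on IVM arrays, against 6.72, 6.20, 7.27, 8.19 and 6.55 on immature arrays, with no overlap. The differences were 3.96 (SE 0.92), 4.31 (SE 0.93) and 3.73 (SE 0.85), with adjusted p of 0.0118, 0.0081 and 0.0107 by limma. Without immature array 4 they were 4.59, 4.83 and 4.04. With immature arrays 4 and 5 alone they were 3.05, 3.50 and 3.35, and none passed 0.05 over all probe sets, with adjusted p of 0.232, 0.188 and 0.204. Fitted over varying probe sets alone, the same comparison gave 0.0613, 0.0424 and 0.0481.

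ADAMTS1, the secreted protease that cleaves versican, had 1 probe set that varied and 1, Bt.12010.2.S1_at, flat at 6.83. Bt.12010.1.S1_at read 8.10, 10.30, 9.60, 11.40 and 7.57 on IVM arrays, against 5.95, 5.74, 5.50, 6.85 and 5.53 on immature arrays. The groups did not overlap, and array 4 was the highest in both. The difference was 3.48 (SE 0.74, adjusted p = 0.0078 by limma), and it was 3.21 with immature arrays 4 and 5 alone, where it missed 0.05 over all probe sets (adjusted p = 0.174) and passed it over varying ones (0.0384).

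CD44 was represented by 1 probe set, Bt.5494.1.S1_at, flat at 6.64 on all 10 arrays, so its level could not be compared. TNFRSF21 read 10.30, 11.40, 10.73, 12.97 and 9.36 on IVM arrays, against 6.09, 6.79, 6.08, 6.87 and 6.39 on immature arrays (Bt.12694.1.S1_at). All IVM arrays stood well above all immature arrays. The difference was 4.51 (SE 0.62, adjusted p = 7.9e-04 by limma), rank 45, and it was 4.32 with immature arrays 4 and 5 alone (adjusted p = 0.0514, and 0.0064 over varying probe sets).

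**Figure D2:**
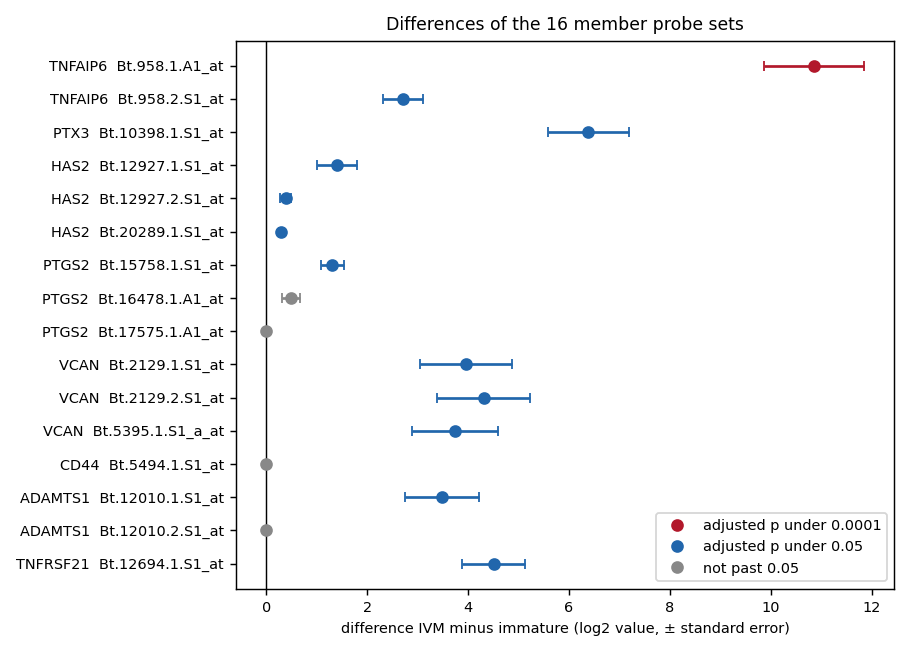
Difference of IVM minus immature (log2, horizontal axis) of each of the 16 member probe sets, with the SE as a bar, coloured by the adjusted p of limma. The first TNFAIP6 probe set lies at 10.86, PTX3 at 6.38 and TNFRSF21 at 4.51, while the HAS2 and PTGS2 probe sets lie between 0 and 1.40, and 3 of the varying ones turn negative with centring on the poly-A controls (-0.67, -0.76 and -0.56).

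The flat probe sets bear on the adjusted p. When limma was fitted only over the 9460 probe sets that varied, 4 member probe sets passed 0.0001 (both of TNFAIP6, PTX3 and TNFRSF21), where 7.24% of those probe sets were higher at that threshold. All 13 were higher at 0.05 in that fit, where 40.4% of all that varied were higher and 73.5% passed in either direction. All 13 differences were positive, and so were 57.5% of those over all probe sets that varied.

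With the replicate number as a block, no member passed 0.0001 over all probe sets, nor did any other probe set in either direction. There 0.0% were higher and the lowest adjusted p was 1.76e-04. At 0.05, 10 of the 16 members passed under the block, where 12.6% of all probe sets were higher. With immature arrays 4 and 5 alone, 3 of 16 passed 0.05 (the first of TNFAIP6, PTX3 and Bt.15758.1.S1_at of PTGS2), where 5.14% of all probe sets were higher. Over varying probe sets, a setting chosen after seeing the data, the same comparison gave 9, adding the other TNFAIP6 probe set, TNFRSF21, ADAMTS1, the first of HAS2 and the VCAN probe sets Bt.2129.2.S1_at and Bt.5395.1.S1_a_at, where 26.1% of the varying probe sets were higher.

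Within a group, TNFAIP6, PTX3, VCAN, ADAMTS1 and TNFRSF21 varied together, and HAS2 and PTGS2 less so. The IVM arrays ran 4, 2, 3, 1, 5 from highest to lowest in 8 of the 13 varying member probe sets, an order that 10.8% of all varying probe sets had. IVM array 4 was highest in 10 of 13 and IVM array 5 lowest in 10 of 13, against 37.1% and 23.0% of all varying probe sets. Among immature arrays, array 4 was highest in 8 of 13, against 24.5% of all varying probe sets, and these 8 were the 3 of VCAN, both of TNFAIP6, the varying one of ADAMTS1, that of TNFRSF21 and the third of HAS2.

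After each array was set against its group mean, Pearson's r over the 10 arrays was 0.57 to 0.98 between the 8 varying probe sets of TNFAIP6, PTX3, VCAN, ADAMTS1 and TNFRSF21 (median 0.89 over 28 pairs). It was 0.89 to 0.98 between the 3 of VCAN. The 5 varying HAS2 and PTGS2 probe sets had r of -0.37 to 0.93 with those 8 over 40 pairs (median 0.37). It depended on the probe set: 0.63 to 0.85 for HAS2 Bt.12927.2.S1_at, 0.60 to 0.93 for PTGS2 Bt.16478.1.A1_at, and -0.37 to 0.44 for the others. With each other the 5 had r of -0.14 to 0.76 over 10 pairs (median 0.10). These correlations share the arrays and their normalisation and are given as a description.

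**Figure D3:**
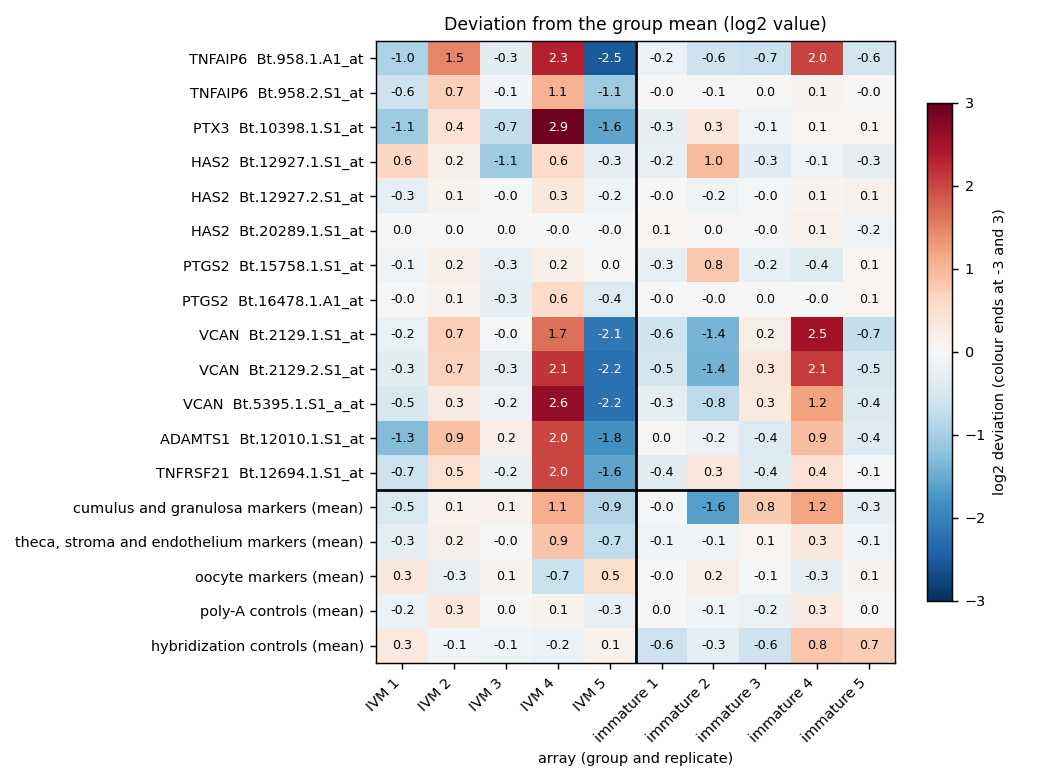
Deviation of each array (columns, IVM left, immature right) from its group mean on the log2 scale, for the 13 varying member probe sets and the means of 3 marker lists and 2 kinds of control RNA (lines). IVM arrays 4 and 5 and immature array 4 stand out in TNFAIP6, VCAN and ADAMTS1. The means of cumulus and granulosa markers and of theca, stroma and endothelium markers are also highest on array 4 in both groups. The oocyte marker mean is lowest on array 4 in both, and the poly-A control mean is highest on IVM array 2 and immature array 4.

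Markers of the cells around the oocyte were read on the same arrays. Of 20 cumulus and granulosa markers on the array 15 varied, and their mean was 7.86 to 9.84 on IVM arrays, in the order 4, 3, 2, 1, 5, and 7.26 to 10.08 on immature arrays, with array 4 highest and array 2 lowest. Of them 3 rose at 0.05, namely KRT18 (difference 3.92, adjusted p = 0.0079 by limma), CDH2 (3.16, 0.0316) and GATA4 (2.09, 0.0151). Another 3 fell, namely HSD17B1, an oestradiol-forming enzyme (-5.75, 0.0014), the aromatase CYP19A1 (-1.38, 0.0066) and KITLG (-0.66, 4.54e-05).

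The markers LHCGR, FOXL2, NR5A1, NR5A2 and KRT8 were flat, and the other 9, FSHR, CYP11A1, HSD3B1, AMH, INHA, INHBA, FST, GJA1 and SERPINE2, varied but did not pass 0.05. INHA, for example, averaged 10.22 ± 1.24 in IVM and 11.13 ± 1.88 in immature oocytes (SD, n = 5 each). For comparison, the mean of the 13 varying member probe sets was 9.77, 10.66, 9.93, 11.60 and 8.95 on IVM arrays and 6.61, 6.64, 6.71, 7.51 and 6.60 on immature arrays. The groups overlapped in the marker mean, which averages markers that rose with markers that fell, and did not overlap in the member mean. The part of these cells in the member values, between groups or within a group, was not tested. Since the RNA is a pool, fewer cells of a type and less RNA in each cell cannot be told apart.

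Of 12 theca, stroma and endothelium markers 5 varied, with a mean of 7.51 to 9.11 on IVM and 6.81 to 7.24 on immature arrays. In this mean the IVM arrays ran 4, 2, 3, 1, 5 from highest to lowest, and in the oocyte marker mean 5, 1, 3, 2, 4. PDGFRA, a receptor of mesenchymal cells, rose by 5.81 (adjusted p = 3.6e-04 by limma), DCN by 1.79 (0.0051) and COL3A1 by 0.01 (0.0353), and TEK fell by 2.89 (1.48e-04). Of 11 blood and immune markers 10 were flat, and CSF1R fell by 2.01 (1.39e-04). The part of these cells in the member values was not tested.

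Other genes of the pathway were taken from lists, each gene by its probe set with the highest mean, and over all 9155 genes 16.7% were higher and 21.2% lower at 0.05. Among 17 genes of hyaluronan synthesis, turnover and binding, 4 (23.5%) rose at 0.05 and none fell. These were enzymes that make the sugar nucleotides that HAS2 joins, or their precursors. UAP1 averaged 10.96 ± 1.08 in IVM and 7.58 ± 0.95 in immature oocytes (difference 3.37, adjusted p = 0.0044 by limma). Its other probe sets differed by 0.02 and 0.00 and did not pass 0.05 (0.13 and 0.16). GNPNAT1 rose by 1.34 (0.0019), UGDH by 1.27 (0.0074) and UGP2 by 0.71 (0.003). The other synthases HAS1 and HAS3 were flat, as were 9 more genes of the list, the precursor enzymes GFPT1 and PGM3 among them. The hyaluronidase HYAL1 (0.58, 0.528) and the receptor HMMR (0.10, 0.65) did not pass 0.05. The median difference was 0.99 over the 6 genes that varied, and 0.0045 over all varying genes.

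Another list of 17 genes held link proteins, hyaluronan-binding proteoglycans, the inter-alpha-trypsin inhibitor, which supplies the heavy chains that TNFAIP6 moves, and some other genes. Of these 14 were flat, among them HAPLN1 and every other link protein, proteoglycan and inhibitor gene of the list. TNC, a matrix glycoprotein that binds versican, rose by 3.00 (adjusted p = 0.012 by limma) and HABP4 by 0.56 (0.0183). Of 5 other ADAMTS genes 4 were flat, as was their cofactor FBLN1, and ADAMTS4, which also cleaves versican, differed by 0.04 (0.77).

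Upstream of expansion, the EGF-like ligand AREG and the receptor EGFR were flat, as 5 of 6 genes of that list were. The sheddase ADAM10 rose by 0.59 (adjusted p = 0.0189 by limma), and its other probe sets by 0.76 (0.046) and 1.41 (0.003). Of 12 hormone receptors and transcription factors of the ovulatory response 7 were flat, PGR, CEBPA and CEBPB among them, and none of the 5 that varied rose. FOS fell by 4.45, to 8.27 ± 1.31 in IVM against 12.72 ± 1.29 in immature oocytes (SD, n = 5 each; adjusted p = 0.0037), and CREB1 fell by 1.55 (5.44e-05).

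In the prostaglandin list of 12 genes, the constitutive cyclooxygenase PTGS1 rose by 0.68 (adjusted p = 0.0303 by limma) and the prostaglandin E synthase PTGES3 by 0.73 (0.036), and the reductase AKR1B1 fell by 3.04 (3.5e-04). PTGES differed by 0.05 (0.258), and the receptor PTGER2 was flat.

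The oocyte-secreted factors that act on cumulus cells moved apart. GDF9 averaged 8.77 ± 1.08 in IVM and 13.18 ± 0.41 in immature oocytes (SD, n = 5 each; difference -4.42, adjusted p = 3.1e-04 by limma), whereas BMP15 averaged 11.07 ± 0.52 in IVM and 10.88 ± 0.38 in immature oocytes (0.19, 0.717). In their list of 14 genes 4 rose and 3 fell. SMAD3, a signal transducer of GDF9, fell by 5.15 (4.5e-07) and SMAD2 by 1.04 (8.3e-04). SMAD4, the common partner, rose by 2.41 (0.0061), and the receptors TGFBR2 and ACVR2B by 2.08 (6.1e-04) and 1.997 (5.68e-05). The receptors BMPR2, BMPR1B, TGFBR1 and ACVR2A of the list were flat, so their levels could not be compared.

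Among 10 genes of the TNF receptor family and its adaptors, TNFRSF1A rose by 3.06 (adjusted p = 0.0031 by limma) and CD40 by 1.47 (2.4e-04), and the adaptor FADD fell by 0.71 (1.87e-05). Of 7 CD44 partners, MMP9 rose by 1.40 (0.027), RDX by 0.49 (0.0197), and EZR, which ties CD44 to actin, fell by 1.02 (0.0032). Oocyte markers went mostly the other way: 6 of 10 fell at 0.05 and KPNA7 rose by 0.37 (0.0057). GTSF1 fell by 4.87 (6.1e-07), NLRP5 fell by 4.03 (4.8e-05) and the zona pellucida gene ZP3 fell by 3.78 (6.5e-05).

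Centring on the poly-A controls lowered every difference, and the median of all probe sets, by 1.05, so relative to that median no value moved. But by each gene's probe set with the highest mean, rises below 1.05 turned negative: those of UGP2, HABP4, ADAM10, PTGS1, PTGES3, SMAD5, RDX, COL3A1 and KPNA7. Centring on the oocyte markers raised every difference and that median by 2.004, so that falls smaller than this turned positive: those of CYP19A1, KITLG, ZP2, CREB1, FADD, SMAD2 and EZR. Some of the smaller rises also rested on single arrays: CDH2, COL3A1, PTGS1, PTGES3, SMAD5 and MMP9 missed 0.05 in 6 to 8 of the 10 fits without 1 array, with a highest adjusted p of 0.0741, 0.08, 0.0719, 0.0799, 0.0864 and 0.0618. With the replicate number as a block, COL3A1 (0.156), ADAM10 (0.0817), PTGES3 (0.0734), RDX (0.0999) and MMP9 (0.0734) missed it.

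**Figure D4:**
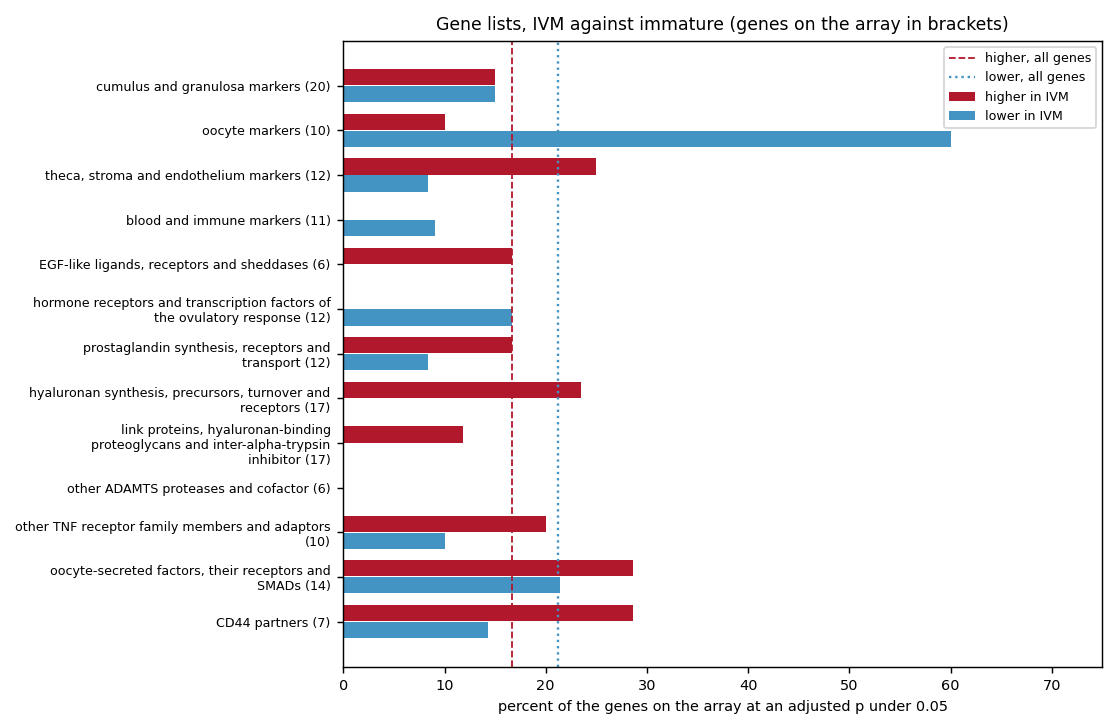
Percent of the genes on the array (horizontal axis) higher (red) or lower (blue) in IVM oocytes at an adjusted p under 0.05, for the 9 pathway lists and 4 marker lists, with all 9155 genes as lines at 16.7% (higher) and 21.2% (lower). Oocyte markers have the longest bar, for genes lower in IVM oocytes, and small differences in the lists change sign with centring on the poly-A controls (rises) or the oocyte markers (falls).

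The genes most like each member were found by Pearson's r over the 10 arrays, among varying probe sets with 1 symbol. The difference between the groups makes up much of these r. For TNFAIP6 Bt.958.1.A1_at they were PLAT, SERPINA14 and RCAN1 (r of 0.997, 0.996 and 0.995), with differences of 7.85, 7.96 and 7.05. For PTX3 they were TNFRSF6B, IRF9 and, among the members, TNFRSF21 (r = 0.99 or more), and for TNFRSF21 they were TGFB2, HSD11B1 and PTX3. For ADAMTS1 they were TNFRSF1A, LRRC2 and VMP1 (r = 0.99 each).

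For VCAN Bt.2129.1.S1_at they were UAP1, ITGA2 and GATA6 (r = 0.99 each). UAP1 also led after each array was set against its group mean (r = 0.97), followed by GATA6 and THBS1 (r = 0.97 each). HAS2 Bt.12927.1.S1_at was most like RAB8B, ATP13A3 and a second ADAM10 probe set (r = 0.97 to 0.98), and PTGS2 Bt.15758.1.S1_at most like ARF4, NRAS and ACTR3 (r = 0.97 each).

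Set against the group means, the genes nearest to TNFAIP6 Bt.958.1.A1_at were ANKRD1, BMP2 and NDRG1 (r = 0.97 to 0.98), and all of these were higher in IVM oocytes. For TNFAIP6 Bt.958.2.S1_at they were PAICS, MAOA and PAIP2 (r = 0.99 each). Of these, PAICS (-2.54) and PAIP2 (-1.91) were lower in IVM oocytes and MAOA (2.29) was higher. Those nearest to PTX3 were NARS1, GUSB and TNFRSF6B (r = 0.99 each), of which NARS1 was lower in IVM oocytes, by -2.72.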

How the data were processed

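The authors hybridised 10 arrays, read them with GCOS, summarised each probe set with FARMS and quantile-normalised the arrays. The deposited values are log2, 1 a probe set, with calls of informative probe sets not used here. The study's methods name SAM, and limma was used in its place. An array has no read depth, so the number of arrays limits precision. From the values, limma 3.58.1 (R 4.3.3; lmFit, eBayes) gave IVM minus immature over 24016 probe sets without the 112 control ones. Symbols came from GEO's platform annotation, updated to current ones. Of the probe sets, 13292 had 1 symbol, 86 several and 10638 none. Members and lists were chosen with earlier results of these data known. Named were all members, the list genes under 0.0001 or with the 3 largest changes at 0.05, a few genes fixed by name, and the 3 genes most like a member. On simulated data the fit over all probe sets recovered 12 of 100 changes of log2 1 and 32 of 100 of log2 2 at 0.0001, with 0 false calls, and 58 and 90 at 0.05, with 3 false calls. The study's methods give replicates as days of collection, but no label ties a number in both groups to the same day. The block assumes that it does. Checked on the data, deviations of same-number arrays correlated at 0.15, -0.34, 0.08, 0.68 and 0.35 for numbers 1 to 5. The immature array with the highest r was 2, 4, 1, 4 and 2 for IVM arrays 1 to 5 (r of 0.56, 0.49, 0.24, 0.68 and 0.63). Other settings changed the probe sets fitted, normalisation, centring, variance prior or arrays. No member sequence was used, and the files name no genome build.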

Additional observations from a re-analysis of the deposited data

Results flagged for a closer look

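In 2 of the 26 groups of 5 arrays (13 varying member probe sets, 2 groups each) 1 array stood apart from the others by a gap that chance gives in about 1 of 20 groups. TNFAIP6 Bt.958.1.A1_at read 5.95 on immature array 4, where the next highest immature array read 3.77, a gap of 0.82 of the range of the group. Without that array the difference was 11.36 and the adjusted p of limma 1.56e-04. HAS2 Bt.12927.1.S1_at read 10.19 on immature array 2, where the next read 9.09, a gap of 0.86 of the range. Without that array the difference was 1.64 and the adjusted p 0.0134. The cause of either value was not tested.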

How the results depend on the processing

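The number of member probe sets higher at 0.0001 was 1 over all probe sets. It was 4 when only varying probe sets were fitted, 0 with the replicate block, 4 with arrays centred on poly-A controls (where 0.65% of all probe sets were higher and 78.9% lower), 16 with arrays centred on oocyte markers (where 88.8% were higher, flat ones included, since the shift alone separates the groups), and 0 with immature arrays 4 and 5 alone, over all probe sets or over varying ones (a setting chosen after seeing the data). Leaving out 1 array gave 0 to 1: it was 1 without IVM array 4 (PTX3) and without IVM array 5 (TNFAIP6). The number at 0.05 was 12. It was 3 with immature arrays 4 and 5 alone and 9 in that comparison over varying probe sets, 8 with poly-A centring, 16 with oocyte-marker centring (where 93.7% were higher) and 10 with the replicate block. Leaving out 1 array gave 10 to 13. The median difference of 2.06 was 1.01 with poly-A centring and 4.06 with oocyte-marker centring, and 1.86 to 2.23 without 1 array. Poly-A centring turned HAS2 Bt.12927.2.S1_at to -0.67, HAS2 Bt.20289.1.S1_at to -0.76 and PTGS2 Bt.16478.1.A1_at to -0.56, and under that setting alone did a member difference change sign. Of 247 member differences under the alternatives, 213 kept their direction and side of 0.0001, 12 lost 0.0001 and 19 gained it; at 0.05, 29 lost it and 5 gained it. All 130 without 1 array kept their direction. Beyond the shift by centring, the cause of these changes was not tested. At 5 arrays a group, changes near log2 1 were often missed at 0.0001.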
